A study of Caenorhabditis elegans with 11 samples.

Results

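The cyp-35 genes of Caenorhabditis elegans form a subfamily of cytochrome P450 enzymes with 10 named members, cyp-35A1 to cyp-35A5, cyp-35B1 to cyp-35B3, cyp-35C1 and cyp-35D1. They were taken by annotation alone: every probe set assigned to 1 of these genes and to no other gene was included. This gave 11 of 22548 probe sets and 10 of 17118 annotated genes on the array, 2 probe sets for cyp-35C1 and 1 for each other gene. Transcript levels were measured in whole hermaphrodites 3 days old, grown at 25°C, on 11 Affymetrix arrays with 1 array per sample. Untreated worms served as control (n = 4). For 6 hours the oxygen group (n = 4) was exposed to 99% oxygen in a chamber kept at 40 PSI and 20°C, and a further group received RNA interference (RNAi) against the transcription factor gene skn-1 before the same exposure (n = 3). The sample labels name strain TJ1090 for all 3 groups and the design text names TJ1060, with no genotype; all worms were sterile, per the design text. The way the RNAi was delivered is not given in the sources used here. Samples of unexposed worms under RNAi, or of worms under a control RNAi, are not analysed here.

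Cytochrome P450 enzymes are heme proteins that insert oxygen into small lipophilic molecules, and they draw electrons from NADPH through the P450 reductase, encoded in C. elegans by emb-8. In this worm the cyp-35 genes are known as genes of the intestine that many foreign compounds induce, and loss of cyp-35A function lowers stored fat. SKN-1 is the worm's relative of the vertebrate Nrf factors, which switch on detoxification genes under oxidative stress. The comparison of oxygen with control therefore asks whether this P450 subfamily responds to hyperbaric oxygen, and the comparison of oxygen with and without skn-1 RNAi asks whether its level under oxygen depends on skn-1. Pressure, the shift of temperature and handling came with the oxygen and cannot be told apart from it.

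None of the cyp-35 probe sets passed the test in any of the 3 comparisons. Of the 11 probe sets, 9 were bright enough to be tested, and of these 0 rose and 0 fell under oxygen, against 3.29% and 0.539% (3.83% together) of all 15389 tested probe sets. With skn-1 RNAi under oxygen 0 of 9 were called, against 0.227% of all in either direction, and against control 0 of 9, against 2.49% higher and 0.851% lower (3.34% together). At an unadjusted p below 0.05 these counts were 1, 0 and 1 of 9, against 14.5%, 9.77% and 20.8% of all tested probe sets in either direction, or 4.11%, 3.73% and 4.97% among lower values. The gene behind both of these was cyp-35A5, whose signal was lowest in the skn-1 RNAi group. Among the members, the spread of signal within groups was largest in cyp-35A3.

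The arrays carried a difference that the labels do not state. Control 1 and 2 and oxygen 1 and 2 (set 1) had a lower trimmed mean signal (207 to 216) than the other 7 arrays (set 2, 250 to 250.1), and they also held signal for poly-A spike-in transcripts (median 96.7 to 167, against 2.60 to 15.4). The design text names 2 hybridisation facilities without assigning arrays to them, and whether they match the sets was not tested. The 3 arrays of the RNAi group all belonged to set 2. Results are therefore also given with the set as a block in the fit and within set 2. Total signal per array ran from 6863652 to 9138002. Control 4 and oxygen 4 correlated least with the rest of their groups (mean r over probe sets 0.847 and 0.863). Of 3 skn-1 probe sets, the brightest read 235, 371 and 435 under RNAi against 417 to 681 in oxygen, a log2 difference of −0.58 ± 0.31 (standard error, SE) that did not pass the test (adjusted p = 0.547). The other 2 gave −0.35 ± 0.45 and 0.65 ± 0.81 (adjusted p = 0.769 and 0.759). These fits pooled oxygen arrays of both sets. Within set 2 the brightest probe set read 681 and 455 in oxygen, above all 3 RNAi values. The second read 629 and 469 in oxygen against 263, 386 and 285 under RNAi. For the last the groups overlapped, at 372 and 505 against 256, 345 and 398. The difference within set 2 was not tested, so no test showed a lower skn-1 level under RNAi. Whether replicates were separate cultures is not stated in the labels, and the p-values therefore cover only the spread among these arrays, which may be technical. Tests are limma's moderated test on log2 signal (two-sided, threshold 0.05), and p-values were adjusted by Benjamini-Hochberg across all 15389 tested probe sets. The 3 comparisons share samples, so their values are given side by side and are not independent.

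Of the 5 cyp-35A genes, cyp-35A2 was the one that stayed far above the dim range in every sample. The dim range is judged here by the 40th percentile of each array, 15.1 to 53.4, since detection calls are not used here. In C. elegans cyp-35A2 is among the P450 genes raised by foreign compounds. Its signals in the control samples 1 to 4 were 370, 541, 1565 and 150, in oxygen 352, 414, 781 and 317, and with skn-1 RNAi 281, 536 and 420. Control held both the highest and the lowest of the 11 values, and all 3 groups overlapped. The log2 change under oxygen was −0.09 ± 0.62 (adjusted p = 0.985), with a 95% confidence interval of 0.361 to 2.43-fold. With skn-1 RNAi against oxygen it was −0.13 ± 0.67 (adjusted p = 0.950).

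The spread was widest in cyp-35A3, a gene used in C. elegans as a reporter of exposure to foreign compounds. Its control signals were 146, 218, 821 and 4.20, those in oxygen 98.7, 154, 254 and 11.9, and those with skn-1 RNAi 50.2, 265 and 214. Control 4 and oxygen 4 lay below their array's 40th percentile, while the other 9 samples lay above theirs, and within control the highest value was 196 times the lowest. The standard deviation (SD) of log2 signal around the group means was 2.41, higher than that of 99.8% of tested probe sets, whose median was 0.57. The log2 change under oxygen was −0.31 ± 1.52 (adjusted p = 0.978), and its interval of 0.0780 to 8.32-fold leaves changes of several fold in both directions unresolved. With skn-1 RNAi the difference from oxygen was 0.78 ± 1.64 (adjusted p = 0.861); it was 1.37 within set 2, and −0.15 without oxygen 4.

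The only A gene whose 95% interval under oxygen left out no change was cyp-35A5, another xenobiotic-inducible P450 gene. Its control signals were 89.1, 75.7, 314 and 79.8, those in oxygen 27.7, 25.7, 91.1 and 70.3, and those with skn-1 RNAi 20.4, 27.6 and 50.7. Every skn-1 RNAi sample was below every control sample, whereas oxygen overlapped both groups. Mean signals were 140 ± 116 (SD, n = 4), 53.7 ± 32.3 (n = 4) and 32.9 ± 15.8 (n = 3) in that order. Under oxygen the log2 change was −1.30 ± 0.58, a geometric mean 2.47-fold lower, with an unadjusted p of 0.0475 that did not pass the test in limma (adjusted p = 0.335). The log2 change was −1.62 within set 1 and −0.98 within set 2, and its interval with the set as a block ran from −2.26 to −0.34 (adjusted p = 0.0982). With the replicate number as a block it did not pass either (adjusted p = 0.0806).

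In skn-1 RNAi worms under oxygen against control, cyp-35A5 was lower by 1.90 ± 0.62 on the log2 scale (log2 change −1.90), which did not pass (adjusted p = 0.135). It passed once the set was a block (−2.53 ± 0.51, adjusted p = 0.0264), after quantile normalization (−2.37, adjusted p = 0.0386) and after median centring (−2.47, adjusted p = 0.0468). It did not pass within set 2 (−2.37, adjusted p = 0.136). For cyp-35A5, skn-1 RNAi 1 and 2 lay below their array's 40th percentile (20.4 against 38.3 and 27.6 against 38.5). Oxygen 2 did as well (25.7 against 26.5), so the size of its fitted changes rests in part on dim values. Without a separate test of the RNAi, this difference from control holds oxygen and RNAi together. The direct comparison of skn-1 RNAi with oxygen gave −0.60 ± 0.62 (adjusted p = 0.710), which blocking on the set moved to −1.23 ± 0.51 (adjusted p = 0.331). Groups that did not overlap were seen in 1 of 9 cyp-35 probe sets in the comparison with control, against 23.6% of all tested probe sets. They were seen in 0 of 9 in each of the other comparisons, against 10.4% for oxygen with control and 17.2% for skn-1 RNAi with oxygen.

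The gene cyp-35A4 reached the 40th percentile on 8 of 11 arrays. It read 22.8, 40.4, 161 and 25.0 in control, 10.7, 18.4, 54.3 and 102 in oxygen, and 54, 85.7 and 84.2 with skn-1 RNAi. Its highest value was in control 3 and its lowest in oxygen 1, so both of the larger groups spanned the skn-1 RNAi values. The log2 change was −0.44 ± 0.78 under oxygen (adjusted p = 0.921) and 1.18 ± 0.84 with skn-1 RNAi against oxygen (adjusted p = 0.612). Blocking on the set brought the latter to 0.31, and within set 2 its sign turned (−0.03). The gene cyp-35A1 was not tested: its signals of 3.20 to 41.5 lay below the 40th percentile on all 11 arrays, with the highest in oxygen 3.

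The 3 cyp-35B genes lie next to each other and to cyp-35A5 on chromosome V, in the order cyp-35A5, cyp-35B1, cyp-35B2, cyp-35B3. In C. elegans, cyp-35B1 is known as a gene whose level the insulin pathway and DAF-16 set. Its signals here were 0.600 to 4.20, below the 40th percentile on all 11 arrays, so it was not tested. The probe set of cyp-35B2 read 10.4, 12.0, 47.6 and 65.5 in control, 5.60, 8, 47.1 and 33.5 in oxygen, and 13.5, 35.5 and 12.2 with skn-1 RNAi. In control and in oxygen both set 2 samples were above both set 1 samples. It reached the 40th percentile on 3 arrays, control 3 and 4 and oxygen 3, the fewest that allowed a test.

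These 3 arrays are all of set 2, so the log2 difference of 2.45 between the sets is given for cyp-35B2 as a description, with no test. Of all tested probe sets 44.4% differed between the sets. Signals were higher in set 2 for cyp-35A5 (1.27) and cyp-35D1 (1.14), with adjusted p of 0.0374 and 0.0413 in limma. The differences of cyp-35A4 (1.74) and cyp-35B3 (1.72) are also given as a description, since both needed set 2 arrays to be tested. The difference did not pass for cyp-35A2, cyp-35A3 or cyp-35C1. The 40th percentile itself was higher in set 2, at 36.5 and 45.6 against 15.1 and 16.2 in control, and 42 and 53.4 against 17.1 and 26.5 in oxygen. A shift of the whole dim range was not separated from these differences. In set 1 cyp-35B3 reached the 40th percentile on oxygen 1 alone. For cyp-35B2 the log2 change under oxygen was −0.62 ± 0.84 (adjusted p = 0.877) and that with skn-1 RNAi against oxygen 0.14 ± 0.90 (adjusted p = 0.960). The second turned sign with the set as a block, to −1.08 ± 0.40 (adjusted p = 0.286), and within set 2, to −1.14 ± 0.50. Against control, skn-1 RNAi worms differed by −0.47 ± 0.90 (adjusted p = 0.774), and blocking on the set gave −1.69 ± 0.40, with an adjusted p of 0.0475 (0.168 within set 2). No skn-1 RNAi array reached the 40th percentile for cyp-35B2, which entered the test only through arrays where it was high, so this value supports no decrease. Calls with the set as a block came to 2 of 9 lower than control, cyp-35A5 and, with that limit, cyp-35B2, and 0 higher, against 1.57% and 2.97% of all (4.54% together). In that fit 0 of 9 were called under oxygen, against 7.39% higher and 1.87% lower (9.26% together), and 0 of 9 for skn-1 RNAi against oxygen, against 0.182% higher and 0.572% lower (0.754% together).

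The split by set was seen for cyp-35B3 in control and not in oxygen, where oxygen 1 and 4 read the same. Its signals were 13.4, 15, 64.7 and 85.8 in control, 20.7, 14, 59.5 and 20.7 in oxygen, and 31.8, 52.4 and 10.0 with skn-1 RNAi. Control 3 and 4 held the 2 highest values and skn-1 RNAi 3 the lowest, and the groups overlapped. The log2 change under oxygen was −0.41 ± 0.76 (adjusted p = 0.925). With skn-1 RNAi against oxygen it was 0.06 ± 0.82 (adjusted p = 0.981), which turned to −0.80 ± 0.65 when the set was a block.

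Both probe sets of cyp-35C1, a further xenobiotic-inducible P450 gene, gave the same picture. One of them carries the suffix _s_at, which marks probes that match more than 1 transcript, so related sequences can add to its signal. It read 559, 593, 1447 and 98.4 in control, 487, 586, 466 and 93.4 in oxygen, and 204, 203 and 165 with skn-1 RNAi. The skn-1 RNAi samples lay close together, below all control and oxygen samples except control 4 and oxygen 4, which were lower still. The other probe set, with the suffix _at, read 179, 188, 616 and 92.3 in control, 211, 224, 208 and 95 in oxygen, and 127, 104 and 92.7 with skn-1 RNAi. Again control 4 and oxygen 4 were the low samples of their groups.

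Under oxygen the 2 probe sets changed by −0.48 ± 0.80 and −0.26 ± 0.52 on the log2 scale (adjusted p = 0.912 and 0.934). With skn-1 RNAi against oxygen the log2 differences were −0.82 ± 0.86 and −0.71 ± 0.56 (adjusted p = 0.712 and 0.634), and against control −1.30 ± 0.86 and −0.96 ± 0.56 (adjusted p = 0.399 and 0.346). Blocking on the set moved the _s_at differences to −0.33 from oxygen and −0.81 from control. Those of the _at probe set became −0.64 and −0.90. Within set 2 the differences from oxygen and control were −0.14 and −0.99 for _s_at, and −0.39 and −1.15 for _at. None of these passed (adjusted p of 0.437 to 0.976). The differences from control also moved with the samples numbered 3 and 4. Without control 4 and oxygen 4, a choice made after seeing the data, the _s_at probe set was lower than in control by log2 −2.05 (adjusted p = 0.0263), and without control 3 and oxygen 3 the log2 difference was −0.75. For the _at probe set these values were −1.36 and −0.44, and neither passed. The differences from oxygen did not pass in either case.

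The last member, cyp-35D1, encodes an enzyme that in C. elegans hydroxylates the anthelmintic thiabendazole. It read 24.6, 37.3, 111 and 37.1 in control, 42.9, 20.0, 63.4 and 70.4 in oxygen, and 39.4, 18.6 and 27.0 with skn-1 RNAi. The groups overlapped, with means of 52.5 ± 39.5 (SD, n = 4), 49.2 ± 22.7 (n = 4) and 28.3 ± 10.5 (n = 3). Its log2 change under oxygen was 0.0045 ± 0.53 (adjusted p = 0.999), with an interval of 0.445 to 2.26-fold. With skn-1 RNAi against oxygen it was −0.71 ± 0.57 (adjusted p = 0.636), and blocking on the set gave −1.28 ± 0.47 (adjusted p = 0.281).

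**Figure D1:**
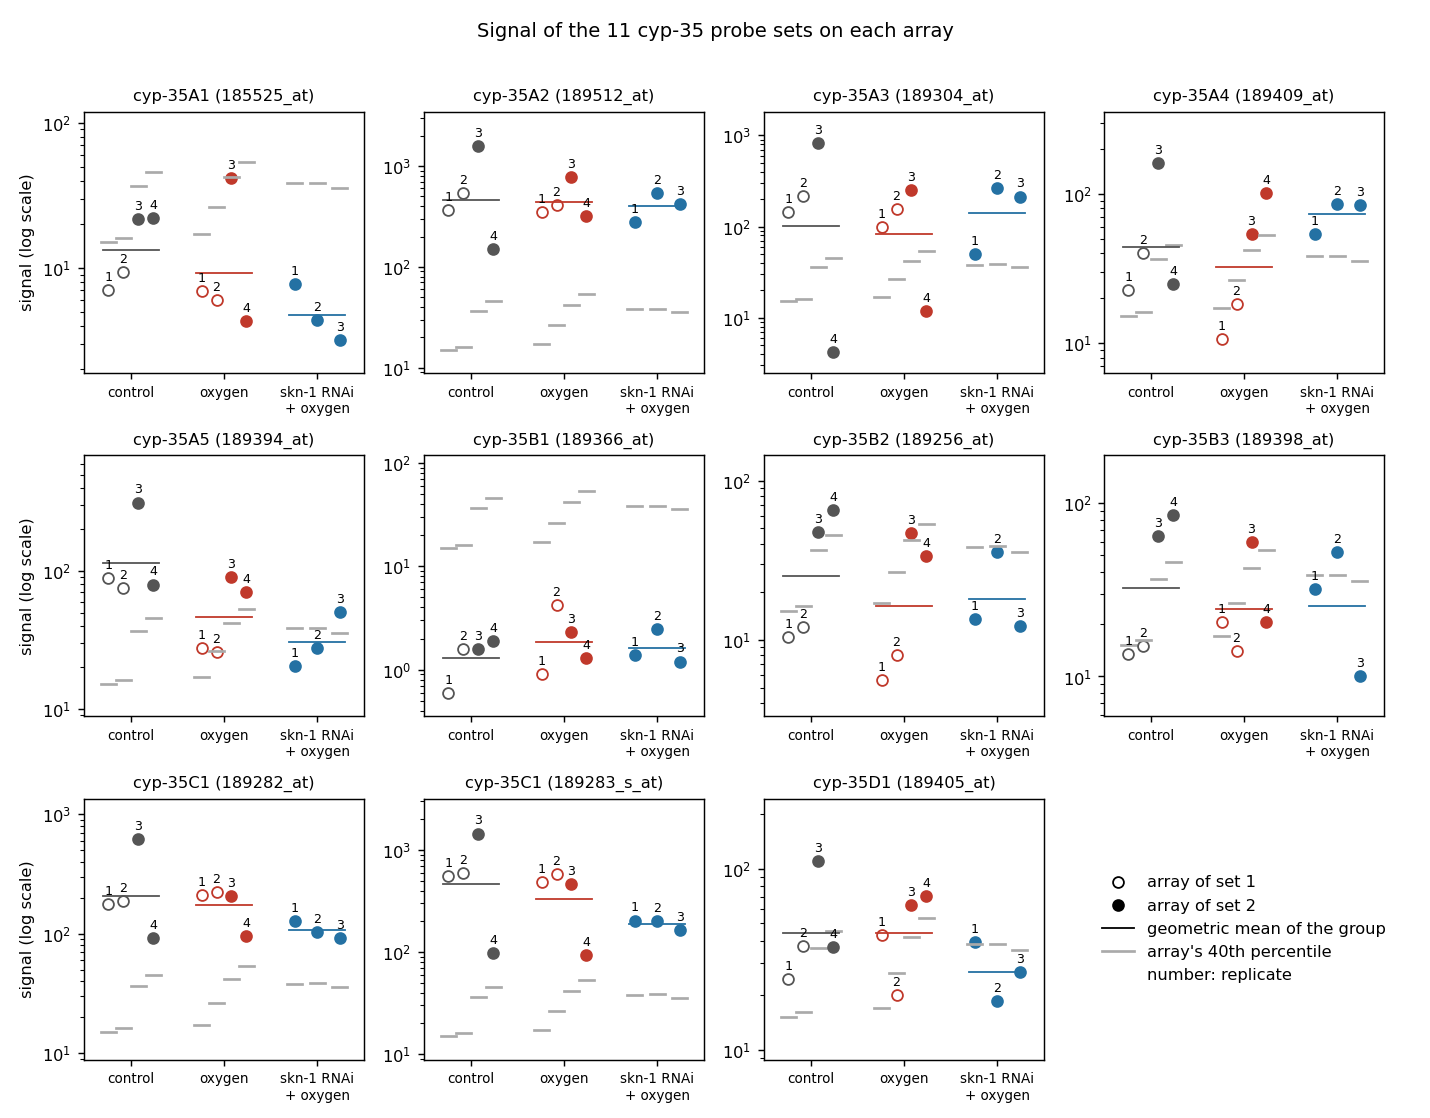
Signal (log scale, linear units of the deposited table) of the 11 cyp-35 probe sets in the 4 control, 4 oxygen and 3 skn-1 RNAi samples, each point being 1 array with its replicate number, open for set 1 and filled for set 2, with the geometric mean of each group and the 40th percentile of each array. The groups overlap in every panel except cyp-35A5, where the 3 skn-1 RNAi arrays (20.4 to 50.7) lie below the 4 control arrays (75.7 to 314).

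Over the 9 tested probe sets the median log2 change under oxygen was −0.41, against 0.06 over all tested probe sets, and 8 of 9 values were below 0. Of all tested probe sets 54.6% were above 0. The 9 are not independent, since 2 belong to cyp-35C1 (r = 0.934 over the 11 arrays). With skn-1 RNAi the medians were −0.13 against oxygen (0.22 over all) and −0.47 against control (0.36 over all), with 5 and 7 of 9 below 0. Here 66.4% and 69.4% of all tested probe sets were above 0. Blocking on the set gave medians over all probe sets of 0.02 and 0.09 in these comparisons, and medians of −0.64 and −0.90 for the 9. Without control 3 the median of the 9 under oxygen was 0.18, against 0.18 over all tested probe sets, with 3 of 9 below 0. Within set 1, which does not hold control 3, it was −0.23 (0.05 over all), with 7 of 9 below 0. For 8 of the 9 the upper end of the interval under oxygen was at most 2.45-fold, so larger rises were outside the interval for these; the exception was cyp-35A3. For skn-1 RNAi against oxygen the intervals reached down to between 0.138- and 0.620-fold. A p that misses the threshold does not show that a gene was unchanged, and decreases of several fold lay within most intervals. The plot of fitted changes shows both fits side by side.

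**Figure D2:**
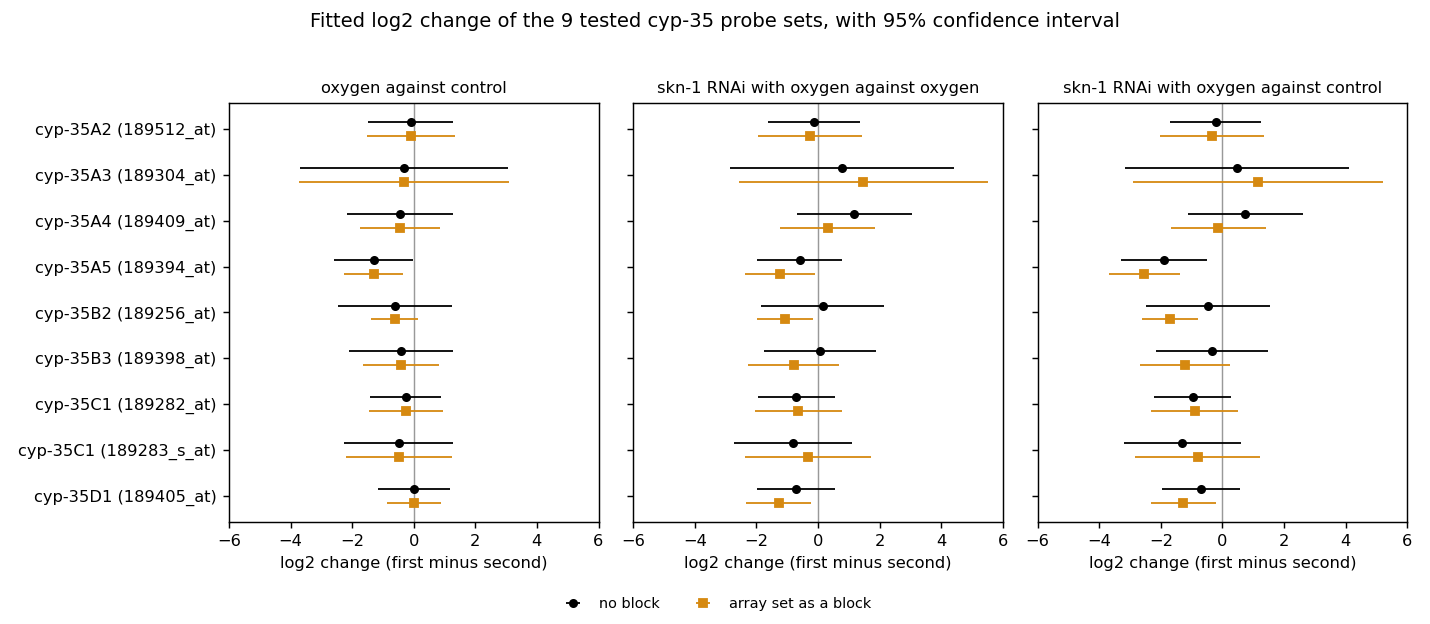
Fitted log2 change (points) with 95% confidence interval (lines) of the 9 tested cyp-35 probe sets in 3 comparisons, without a block (black circles) and with the array set as a block (orange squares). Under oxygen the cyp-35A5 intervals alone lie below 0, and the interval of cyp-35A3 is the widest in each comparison.

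The cyp-35 signals moved between samples of 1 group. In control 3 all 9 tested probe sets lay above the control mean of log2 signal, with a median deviation of 1.56, against 0.32 over all tested probe sets in that array. It held the highest control signal for 7 of the 9, whereas it was the highest control array for 34.6% of all tested probe sets. Oxygen 3 showed the same: all 9 lay above the oxygen mean, with a median deviation of 0.84 (0.24 over all). Control 4 was the lowest control array for 4 of the 9 (cyp-35A2, cyp-35A3 and both cyp-35C1 probe sets), and oxygen 4 was the lowest oxygen array for these 4 as well. For cyp-35B2 and cyp-35B3, in contrast, control 4 was the highest control array.

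Markers of tissues differed between these arrays as well. The summed signal of 15 intestinal markers, all of them tested, was 41107 in control 4 and 23551 to 27114 in the other controls, 40246 in oxygen 4 and 27249 to 31564 in the other oxygen samples, and 26237 to 33938 with skn-1 RNAi. Under oxygen 2 of the 15 rose (cpr-1 and lys-8), against 3.29% of all tested probe sets. Another 3 fell (nhx-2, pept-1 and act-5), against 0.539% of all. By the mean of log2 signal, which bright genes weigh on less, control 4 was again highest (9.96). Within each set this mean was lower in both oxygen samples than in both controls. It was 9.01 and 9.02 against 9.28 in both controls of set 1. In set 2 it was 8.96 and 9.45 against 9.54 and 9.96. Of 10 germ line markers the sum was 39493 in control 4 and 24816 to 31255 in the other controls, 20295 to 26855 in oxygen and 26089 to 27024 with skn-1 RNAi, and 1 of the 10, the RNA helicase gene glh-1, fell under oxygen (log2 −0.97 ± 0.20, adjusted p = 0.0257). For the 5 of 8 sperm markers that were tested the sums were 755 to 1367 in set 1 and 2751 to 8571 in set 2, and those of 6 body wall muscle markers 5079 to 6501 and 8606 to 12930. The part of these tissues, and of the sets, in the cyp-35 values was not tested. In whole worms, fewer cells of a type and less RNA per cell cannot be told apart.

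**Figure D3:**
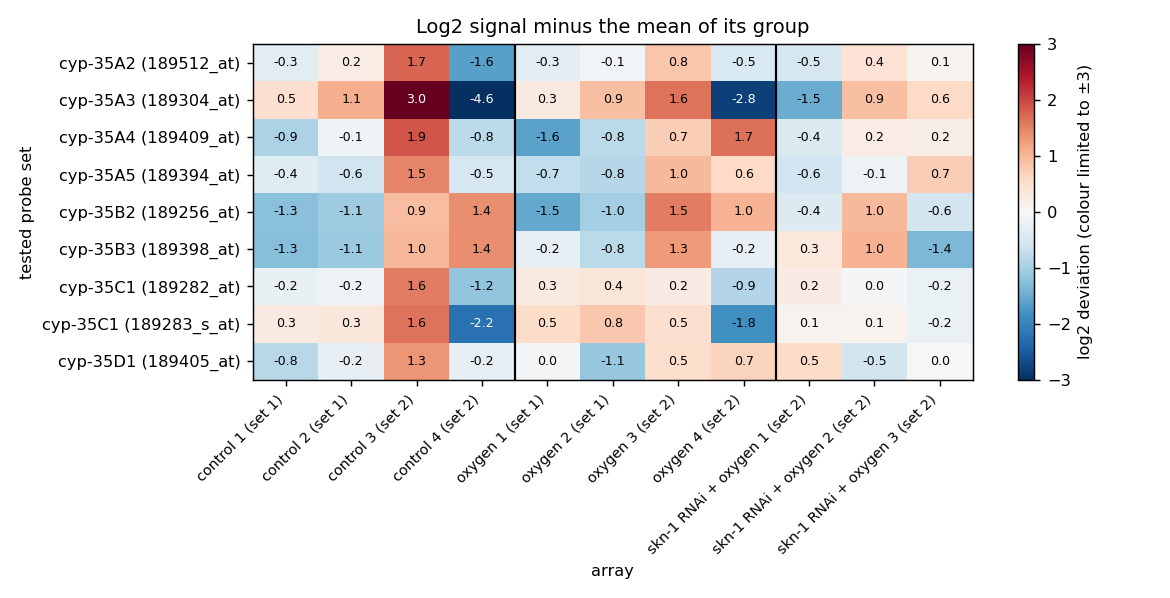
Log2 signal of each tested cyp-35 probe set (rows) on each array (columns, with its set), minus the mean of its group; red is above and blue below the group mean, and lines separate the 3 groups. Control 3 and oxygen 3 are above the mean in all 9 rows, and control 4 and oxygen 4 are far below it for cyp-35A3 and the 2 probe sets of cyp-35C1.

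The genes outside the subfamily most like each tested member across the arrays are named here. Likeness was measured as Pearson's r of log2 signal over the 11 arrays against 11649 genes, each by its brightest probe set, and is given as a description, since the arrays share sets. The named genes were picked as the highest of these, so their high r comes in part from that choice and was not tested. By member, the highest 1 in 100 genes began at r of 0.660 (cyp-35D1) to 0.875 (cyp-35B2). For cyp-35C1 the most alike was the phosphatase gene cdc-14 (r = 0.977, and 0.972 with the set difference removed), followed by ZC155.4 and lbp-8 (0.942 and 0.930); lbp-8 encodes a lysosomal lipid-binding protein. For cyp-35A5 it was mfsd-13.2 (0.960, and 0.966 with the set removed), before pcp-1 and F42A10.7 (0.902 and 0.899). For cyp-35A3, C52A10.3, tgt-1 and syp-4 reached 0.933, 0.930 and 0.930, where the highest 1 in 100 genes began at 0.820. The genes most like cyp-35A2 were zhit-3, ZK792.5 and mel-26 (0.886, 0.872 and 0.870). Those most like cyp-35A4 were unc-22, csp-3 and F17B5.1 (0.949, 0.940 and 0.923). For cyp-35B2 they were C10E2.2, mlt-2 and hdl-1 (0.953, 0.945 and 0.942), and for cyp-35B3 F19B6.1, oops-1 and R05D3.9 (0.950, 0.933 and 0.927). With the set difference removed, r was 0.887 for cyp-35B2 and C10E2.2 and 0.876 for cyp-35A4 and unc-22. For cyp-35D1 the values were lowest, 0.855 for saps-1, 0.843 for mboa-3 and 0.826 for rme-1.

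Genes beside the cyp-35 loci did rise under oxygen. The nearest tested genes on either side of each member in RefSeq's gene order (assembly WBcel235, used for order only) came to 11 genes, of which 4 rose and 0 fell, against 3.29% of all tested probe sets that rose. The 4 include nhr-176, whose test rested on the oxygen samples. K09D9.1, C49G7.12 and dach-1 also reached the 40th percentile on too few control arrays to be tested without exposed samples. The count of 4 is thus one of genes selected in part by the samples where they were high. The gene K09D9.1 is the protein-coding gene next to cyp-35A3 on one side and next to cyp-35A4 on the other. Its signals were 11.1, 23.8, 28.1 and 2.30 in control, 243, 219, 542 and 446 in oxygen, and 82.7, 118.6 and 163.8 with skn-1 RNAi. All exposed samples were above all controls, and the log2 change under oxygen was 4.88 ± 0.71 (adjusted p = 0.00410). On the other side of cyp-35A4, the nearest tested gene, C49G7.12, rose by 5.27 ± 0.55 (adjusted p = 0.000786), from 19.8 ± 9.07 (SD, n = 4) to 840 ± 547 (n = 4). In control, 3 of 4 values of each of these 2 genes lay below the 40th percentile.

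Beside cyp-35B3, dach-1 rose from 23.7 ± 5.47 to 149 ± 67.9 (log2 2.49 ± 0.48, adjusted p = 0.0178). This call ended with the replicate number as a block (0.0513), after quantile normalization (0.0756) and median centring (0.103), and without oxygen 1 (0.0502), 3 (0.0616) or 4 (0.0582). Beside cyp-35D1 lies nhr-176, the gene of a nuclear hormone receptor known in C. elegans to take part in the response of cyp-35D1 to thiabendazole. Its signals were 15.3, 10.5, 7.30 and 7.90 in control, 33.2, 49.1, 46.6 and 32.3 in oxygen, and 35.7, 28.1 and 19.9 with skn-1 RNAi. The groups of control and oxygen did not overlap, although most of the values are dim, with 3 of 4 in control below the 40th percentile. In oxygen 1 of 4 values lay below it, and with skn-1 RNAi all 3 did. Without the oxygen samples, where it was high, nhr-176 would not have been tested, so its call by itself supports no rise. The log2 change was 2.01 ± 0.30 (adjusted p = 0.00474), against 0.0045 for cyp-35D1, and the call ended after quantile normalization (1.59, adjusted p = 0.224) and median centring (1.65, adjusted p = 0.182). The difference between neighbours and members was not itself tested. In skn-1 RNAi worms all 4 genes were also above control (adjusted p = 0.00223 to 0.0455). With the set as a block 3 of these calls stood and that of K09D9.1 ended (0.0647). Over all alternatives run, the call of nhr-176 was lost in 15 of 20 and that of K09D9.1 in 14 of 21. That of dach-1 was lost in 4 of 21 and that of C49G7.12 in 0 of 21. Between skn-1 RNAi and oxygen 0 of the 11 were called, although for K09D9.1 the groups did not overlap and the log2 difference was −1.52 ± 0.77 (adjusted p = 0.530).

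**Figure D4:**
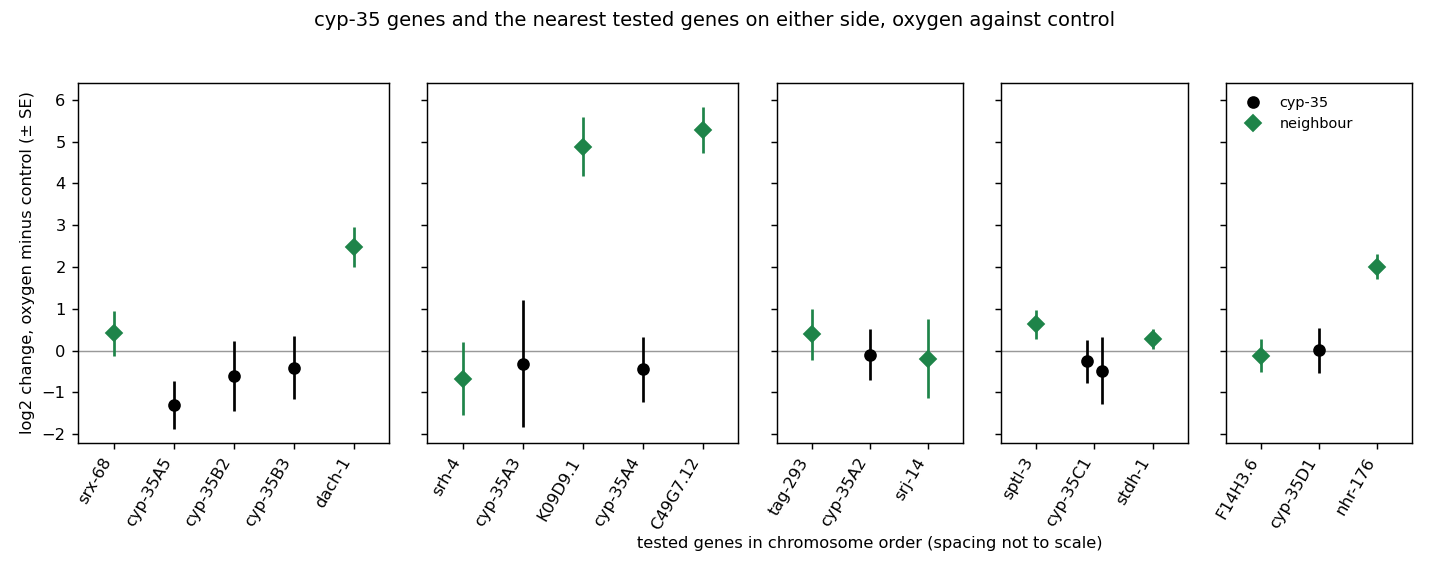
Log2 change under oxygen against control (± SE) of tested cyp-35 genes (black circles, 2 probe sets for cyp-35C1) and of the nearest tested genes on either side (green diamonds), 1 panel for each stretch of chromosome V, in gene order and not to scale. The neighbours K09D9.1 (4.88), C49G7.12 (5.27), dach-1 (2.49) and nhr-176 (2.01) lie above 0, while the cyp-35 values run from −1.30 to 0.0045.

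Other cytochrome P450 genes rose where the cyp-35 genes were not called. Of 63 other cyp genes 44 were tested, of which 8 rose and 1 fell under oxygen (3.29% and 0.539% of all tested probe sets), with a median log2 change of 0.53 against 0.05 over all 11657 genes. Among the 8, cyp-14A4, cyp-42A1, cyp-14A1 and cyp-13A7 had every control below the 40th percentile. They entered the test through exposed samples alone, so the count of 8 includes genes selected by the samples where they were high. The 5 with the smallest adjusted p were cyp-14A5 (log2 5.58 ± 0.37), cyp-33C8 (5.41 ± 0.42), cyp-14A4, cyp-43A1 (2.25 ± 0.36) and cyp-42A1, with adjusted p of 8.92e-05 to 0.0231. For cyp-14A4 and cyp-42A1, whose controls all lay below the 40th percentile, the 40th percentile was taken as a bound, which put the rise at 5.81-fold or more and 1.32-fold or more. The 3 arrays on which cyp-42A1 reached the percentile were all oxygen samples, so it was tested only through the group where it was high, and its call supports no rise. The call of cyp-42A1 ended after quantile normalization (0.195) and median centring (0.173), and without control 1 (0.0545), control 2 (0.0563), oxygen 3 (0.0772) or oxygen 4 (0.0679). The gene that fell, cyp-25A1, named after its values were seen, went from 103 ± 22.8 to 42.0 ± 6.27 (log2 −1.28, adjusted p = 0.0492), a call that ended with the replicate number as a block (0.0955) and without any 1 of the control or oxygen samples (0.0712 to 0.129). Blocking on the set gave 16 genes that rose and 2 that fell, in a fit that called 7.39% and 1.87% of all tested probe sets. Leaving out control 1, control 2 or oxygen 4 left 4 genes that rose, and leaving out oxygen 3 left 5. Whether these genes differed from the cyp-35 genes was not tested.

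With skn-1 RNAi against oxygen 0 of the 44 were called (2 higher and 1 lower when the set was a block). Against control 6 rose and 0 fell (2.49% and 0.851% of all tested probe sets). The 5 with the smallest adjusted p (0.000760 to 0.0131) were cyp-14A5 (log2 5.22 ± 0.39), cyp-33C8 (4.26 ± 0.46), cyp-14A4, cyp-13A7 and cyp-14A1. For the last 3, with all controls below the 40th percentile, the same bound gave rises of at least 6.93-, 3.16- and 4.86-fold. Like every gene with all controls below the percentile, these 3 entered the test through exposed samples alone. The call of cyp-14A1 ended within set 2 (0.110) and without skn-1 RNAi 2 (0.0732) or 3 (0.0623).

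Genes that supply or regulate P450 enzymes were mostly not called. None of 4 genes of electron supply (emb-8, cytb-5.1, cytb-5.2 and hpo-19) passed in any comparison. The signal of the reductase gene emb-8, singled out for its role after its values were seen, was 441 ± 135 (SD, n = 4), 568 ± 101 (n = 4) and 881 ± 130 (n = 3) in control, oxygen and skn-1 RNAi worms (log2 1.04 ± 0.29 against control, adjusted p = 0.0842). Of 14 transcription factors and cofactors tied to cyp-35 or to xenobiotic genes in C. elegans, 1 was called higher under oxygen, nhr-176, whose test rested on the oxygen samples. With the set as a block nhr-80, a nuclear receptor gene, also rose (1.35, adjusted p = 0.0439). None of the 14 was called with skn-1 RNAi against oxygen. Of 7 fatty acid desaturase genes, fat-1 to fat-7, 0 were called in each comparison, with a median log2 change of 0.21 under oxygen.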

How the data were processed

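The authors deposited array intensities on a linear scale, a signal for each probe set; the submitters' processing notes name MAS5 and the program GCOS 1.4. Scaling target and background settings are not given in the sources used here, and the number of arrays limits precision. The 77 manufacturer's controls among 22625 probe sets were left out. In GEO's platform annotation, 20766 of the others named 1 gene, 887 several and 895 none. Probe sequences were not used, so cross-hybridisation between cyp-35 copies was not tested.

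The test took in probe sets that reached the 40th percentile of the array on 3 or more of the 11 arrays. The 1 signal of 0 was set to 0.1. Log2 signals were fitted with limma 3.58.1 in R 4.3.3 (lmFit and eBayes, group as the term, all 11 arrays), and the procedure was tested on simulated data. The array set was read from the signal values. The members and lists were chosen with earlier results of these data known. By rule the text names all members, the 3 most alike genes per tested member, and up to 5 called genes per list and comparison. The lists were other P450 genes, electron supply, regulators, desaturases and genomic neighbours, beside tissue markers. Of the marker lists not described elsewhere, none had a call under oxygen: pharynx (5 tested), neurons (7, of which 2 were higher with the set as a block), epidermis (4), and embryo and larva (3). Alternatives covered blocks, scaling, an added 16, filters and samples left out.

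Control and oxygen arrays of the same number deviated together (r of 0.565, 0.449, 0.489 and 0.523 over probe sets). Other numbers of the same set gave 0.422 and 0.533 in set 1, and 0.346 and 0.353 in set 2. With the set removed the same-numbered pairs gave −0.140, −0.257, 0.223 and −0.139. Other numbers then gave −0.350 and −0.201 in set 1, and −0.251 and −0.433 in set 2. Removing group and set makes the deviations cancel within each set, which draws these r below 0. Same-numbered pairs with skn-1 RNAi arrays gave −0.128 to −0.0045 before the set was removed. Whether control and oxygen arrays were paired by number was therefore not settled by these values. The main tests use group alone, and the replicate number as a block is given as an alternative.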

Additional observations from a re-analysis of the deposited data

Results flagged for a closer look

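Within the groups of 4, 6 of 22 sets of member signals held 1 sample far from the other 3, where chance alone marks about 1 group in 20 for normally distributed values. Control 3 stood apart as the high sample for cyp-35A4 (161.3, others 22.8 to 40.4), cyp-35A5 (313.6, others 75.7 to 89.1) and cyp-35D1 (111.1, others 24.6 to 37.3). Oxygen 3 did so for cyp-35A1 (41.5, others 4.30 to 6.90) and cyp-35B3 (59.5, others 14 to 20.7). Oxygen 4 was the low sample for the cyp-35C1 _at probe set (95, others 208 to 224). These 6 are not independent, since 3 come from control 3 and 2 from oxygen 3. On log2 signal, the scale of the tests, 2 of the 6 stood apart (cyp-35A5 in control 3 and cyp-35C1 _at in oxygen 4), along with 2 other sets, cyp-35B1 in control and cyp-35C1 _s_at in oxygen.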

How the results depend on the processing

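The number of cyp-35 probe sets called stayed at 0 in both directions for oxygen against control and for skn-1 RNAi against oxygen under every alternative run. Against control, the number lower with skn-1 RNAi went from 0 to 2 with the set as a block, 2 with the replicate number as a block (cyp-35A5 −1.88, adjusted p = 0.0308; cyp-35C1 _s_at −1.98, adjusted p = 0.0277), 1 after median centring, 1 after quantile normalization and 1 when control 4 and oxygen 4 were left out; it was 0 each time 1 sample was left out. The replicate block changed no other member's call. The filter at the 60th percentile kept 5 member probe sets. Over 564 refits of 27 member values, 490 kept direction and side of the threshold, 7 passed it and 67 turned sign. Over 491 refits of 23 values of other named genes, 369 kept both, 122 lost the call and 0 turned sign. Scaling moved the median of all probe sets under oxygen from 0.06 to −0.08 (quantile) and −0.31 (median centring), where 9 of 9 members were below 0.

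Log2 values that turned sign follow; the cause was not tested. Under oxygen, within set 2, cyp-35A2 was 0.039 and cyp-35A4 0.23. Within set 1, cyp-35B3 was 0.26, cyp-35C1 (_at) 0.25 and cyp-35D1 −0.048. The value of cyp-35D1 was also −0.34 (quantile), −0.36 (centring) and −0.0014 (16 added). For skn-1 RNAi against oxygen, cyp-35A3 was −0.45 with the replicate block and cyp-35A4 −0.026 within set 2. Under the set block, set 2 alone, quantile and centring, cyp-35B2 was −1.08, −1.14, −0.16 and −0.070, and cyp-35B3 −0.80, −0.46, −0.28 and −0.15; with 16 added cyp-35B2 was −0.028. Against control, cyp-35A3 was −0.76 with the replicate block and −0.10 after centring, and cyp-35A4 −0.13 with the set as a block. Leaving out samples, including control and oxygen 3 or 4 together (chosen after seeing the data), gave ranges under oxygen of −0.64 to 0.49 (cyp-35A2), −1.85 to 0.69 (cyp-35A3), −1.27 to 0.18 (cyp-35A4), −0.84 to 0.14 (cyp-35B3), −0.65 to 0.26 and −1.23 to 0.13 (cyp-35C1, _at and _s_at) and −0.30 to 0.45 (cyp-35D1). Against oxygen they were −0.34 to 0.15 (cyp-35A2), −0.15 to 1.53 (cyp-35A3), −0.37 to 0.65 (cyp-35B2) and −0.45 to 0.74 (cyp-35B3). Against control they were −0.77 to 0.36 (cyp-35A2), −1.07 to 1.47 (cyp-35A3) and −0.87 to 0.33 (cyp-35B3).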
